A study of Mus musculus with 7 samples.

Results

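Hyaluronan is a long sugar polymer of the extracellular matrix, and 10 genes that make it, break it down, crosslink it or bind it were followed here in the mouse extrahepatic bile duct (EHBD) after bile duct ligation (BDL). The members were the synthases Has1, Has2 and Has3, the breakdown genes Hyal1, Hyal2, Cemip and Cemip2, the crosslinking genes Tnfaip6 and Ptx3, and the receptor Cd44. They were found by gene name among the 56065 genes of the count table, and all 10 were present and passed the filter on low counts, as did 25209 genes in all. The list was chosen on known roles and with the BDL and sham values of these libraries already in view. The difference between BDL and sham is therefore given as a description of the members and supports nothing further. Sex was not used in the choice and was tested. The lists of other pathway genes were also made with earlier results known, and their counts are a description.

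Whole EHBD tissue came from adult wild-type mice of both sexes (C57BL/6 in the labels, C57BL/6J in the study's methods), collected 48 hours after surgery. In BDL mice the distal duct was tied near the duodenum, which blocks bile flow, and sham mice had the abdomen opened without ligation. There were 3 sham libraries (replicate 1 female, replicates 2 and 3 male) and 4 BDL libraries (replicates 1 and 2 male, replicates 3 and 4 female). Separate animals are not stated in the labels, although the study counts its replicates as mice. The p-values here set a difference against the spread between these libraries, which may not be the spread between animals.

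Hyaluronan is built at the plasma membrane from nucleotide sugars and is extruded into the matrix, where hyaluronidases cut it and cells take it up through receptors such as CD44. Under inflammation, TSG-6, the product of Tnfaip6, moves heavy chains of inter-alpha-trypsin inhibitor onto the polymer, and the long pentraxin PTX3 ties these chains together. This assembly is best known from the matrix that swells around the mouse oocyte before ovulation, where Has2, Tnfaip6 and Ptx3 are induced together. Hyaluronan is also a component of the submucosa of the bile duct.

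Libraries held between 48882420 and 61291821 counts, and levels are given as CPM, which are counts relative to the TMM-scaled library size. The duct markers Krt19, Krt7 and Epcam were found in every library, at 421 CPM or more for Epcam. Tissue next to the duct was carried along in unequal amounts: 17 markers of pancreatic acinar cells took 8.31% to 35.3% of the counts in sham and 0.00247% to 11.8% in BDL. The 14 hepatocyte markers summed to 11664 and 45234 CPM in BDL replicates 1 and 4, against 86.6 and 129.5 CPM in BDL replicates 2 and 3 and 491 to 1916 CPM in sham. No acinar or hepatocyte marker was called between the surgery groups, and results that move with these libraries are given with and without them. In whole tissue, fewer cells of a type and less RNA per cell cannot be told apart.

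The starts of Ptx3 and Tnfaip6 are shown first, because their transcripts are the crosslinking part of the set and both were higher in BDL with no overlap between the groups. Both windows are from RefSeq on build GRCm38.p6, run from 250 bases before the annotated start to 30 bases after it, and lie on the plus strand. The Ptx3 window is chr3:66219637-66219916 and the Tnfaip6 window is chr2:52037863-52038142. Capitals mark matches to the motifs searched.

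Ptx3: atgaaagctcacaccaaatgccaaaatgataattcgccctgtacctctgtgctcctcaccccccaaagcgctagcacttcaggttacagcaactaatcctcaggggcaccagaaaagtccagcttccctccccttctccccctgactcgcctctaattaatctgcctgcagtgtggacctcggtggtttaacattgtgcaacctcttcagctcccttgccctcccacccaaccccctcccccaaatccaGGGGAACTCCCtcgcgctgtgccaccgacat
Tnfaip6: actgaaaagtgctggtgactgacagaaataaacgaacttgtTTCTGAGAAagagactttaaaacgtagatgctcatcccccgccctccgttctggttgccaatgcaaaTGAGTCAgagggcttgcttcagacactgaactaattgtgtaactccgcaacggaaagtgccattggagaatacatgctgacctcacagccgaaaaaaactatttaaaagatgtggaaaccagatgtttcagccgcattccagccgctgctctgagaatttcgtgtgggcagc

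Windows of 300 bases, 250 before and 50 after the start, were available for 7 members (Has1, Hyal1, Hyal2, Cemip, Tnfaip6, Ptx3 and Cd44) and were searched on both strands for 5 motifs. These were the kappaB consensus, which binds NF-kappaB factors, the AP-1 element TGANTCA, the cyclic AMP element CRE (TGACGTCA), the STAT element TTCNNNGAA and the TATA box TATAAA. In Ptx3 the capitals mark overlapping matches to the kappaB consensus that span the annotated start, from base -1 to base 10, with no base 0. In Tnfaip6 they mark a STAT element from -209 to -201 and an AP-1 element from -142 to -136. Hyal2 held a kappaB match from -238 to -229, Has1 a CRE from -83 to -76 and Cemip a TATA box from -29 to -24, and Hyal1 and Cd44 held no match. Of all 32851 windows of this length, 8.46% held a kappaB match, 7.81% an AP-1 element, 1.79% a CRE, 8.30% a STAT element and 13.6% a TATA box. No matches to different motifs overlapped in the member windows. The window was taken through to 50 bases after the start once a search of the 250 bases before it had found no match in Ptx3, so the Ptx3 match was found after a change of window. A match describes the letters and is neither a shown binding site nor a cause.

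Synthases are described first, and the synthase transcript that was most abundant differed between sham and BDL. Has2 (chromosome 15, 56528342 to 56557999, minus strand, GRCm39), the main synthase of expanding matrices in the mouse, stood at 0.250, 0.373 and 0.0537 CPM in sham replicates 1 to 3, from 13, 24 and 2 counts. In BDL replicates 1 to 4 it stood at 12.5, 17.4, 14.1 and 33.5 CPM. The lowest BDL library was far above the highest sham library, and BDL replicate 4 stood above the other BDL libraries. The fitted log2 fold change was 6.23 (SE 0.68), or 75.0-fold, and it stayed between 5.87 and 7.05 over 18 alternatives.

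BDL replicate 4 was also the library with the most hepatocyte and neutrophil transcripts, and their part in its Has2 level was not tested. Without BDL replicates 1 and 4 the Has2 log2 fold change was 6.05, and without BDL replicates 2 and 3 it was 6.30. The antisense transcript Has2os overlaps 400 bases of Has2 exons on the opposite strand. The kit does not mark strand, so reads there cannot be told apart. As estimated, Has2os averaged 0.430 CPM in sham and 0.716 CPM in BDL, with a log2 fold change of 0.67 (SE 0.55).

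Has1 (chromosome 17, 18063585 to 18075467, minus strand), a synthase of low enzyme activity, stood at 0.385, 0.684 and 0.376 CPM in sham and at 1.07, 1.32, 2.83 and 4.45 CPM in BDL. The groups did not overlap, and the female BDL libraries, replicates 3 and 4, were the highest. The log2 fold change was 1.90 (SE 0.59), with an adjusted p = 0.055 in edgeR's quasi-likelihood test, just past the threshold of 0.05. It was under the threshold in 7 of the 18 alternatives, among them DESeq2 (adjusted p = 0.00259) and edgeR without sham replicate 2 (adjusted p = 0.0417). Without sham replicate 1 the log2 value was 1.16 (adjusted p = 0.167 in edgeR).

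Has3 (chromosome 8, 107596874 to 107611198, plus strand), whose enzyme makes shorter chains in cultured cells, had values the other way. It stood at 0.751, 1.26 and 0.751 CPM in sham and at 0.301, 0.183, 0.444 and 0 CPM in BDL. The 0 counts of BDL replicate 4 allow a level of up to 0.0527 CPM (3 counts, counting error only). Every BDL library was below every sham library, yet with 10 to 81 counts in the other libraries the log2 fold change of -1.92 (SE 1.02) did not pass (edgeR adjusted p = 0.211). This fitted value depends on how the count of 0 is treated, and without BDL replicate 4 it was -1.61 (adjusted p = 0.0828). Has3 shares 352 exonic bases with the protein-coding genes Derpc and Chtf8 on the opposite strand, whose reads cannot be told apart there.

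Levels of different genes were compared per kilobase of exon, since a longer transcript gives more reads. On that scale Has3 made up 46.5%, 46.6% and 55.6% of the summed synthase level in the sham libraries and Has2 19.9%, 17.7% and 5.09%. In BDL replicates 1 to 4 Has2 made up 89.8%, 91.6%, 80.3% and 87.2% and Has3 at most 1.97%. Has1 went from 36.2% ± 2.84 (SD, n = 3) to 11.7% ± 4.64 (SD, n = 4). Has3 was thus the most abundant synthase transcript in all 3 sham libraries and Has2 in all 4 BDL libraries, also with the longest transcript as the length. The sham order rests on few reads, with 28 to 81 counts for Has3 and the overlap with Derpc and Chtf8 noted above.

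**Figure D1:**
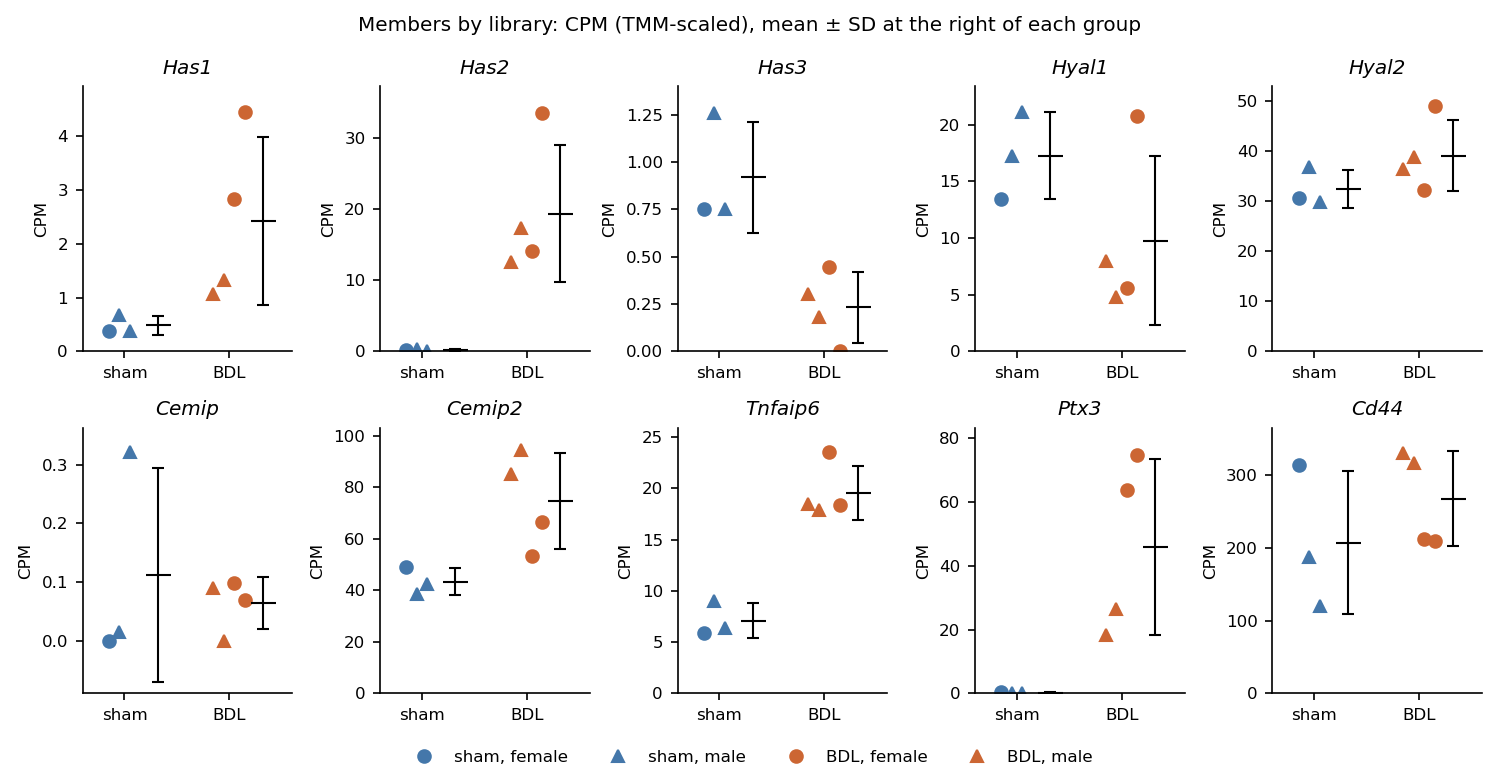
CPM of each of the 10 members (vertical axes) in 3 sham and 4 BDL libraries, with circles for female, triangles for male, and the mean ± SD drawn at the right of each group. Has1, Has2, Cemip2, Tnfaip6 and Ptx3 lie higher in BDL with no overlap and Has3 lies lower, while Hyal1, Hyal2, Cemip and Cd44 overlap.

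Across the set, 4 of 10 members (Has2, Cemip2, Tnfaip6 and Ptx3) had an adjusted p under 0.05 with BDL higher, and 0 of 10 with BDL lower. Over all 25209 genes tested, 22.8% passed in either direction, 11.8% with BDL higher and 11% with BDL lower. By DESeq2 the counts were 5 higher and 0 lower, with backgrounds of 17.3% and 18.8%, or 36.1% in either direction. Between the groups, 6 members did not overlap, 5 above and 1 below, where 36.6% of all genes did not. The median log2 fold change was 0.58 over the 10 members and -0.01 over all genes tested. Because this contrast was known when the members were listed, nothing is read from these counts.

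**Figure D2:**
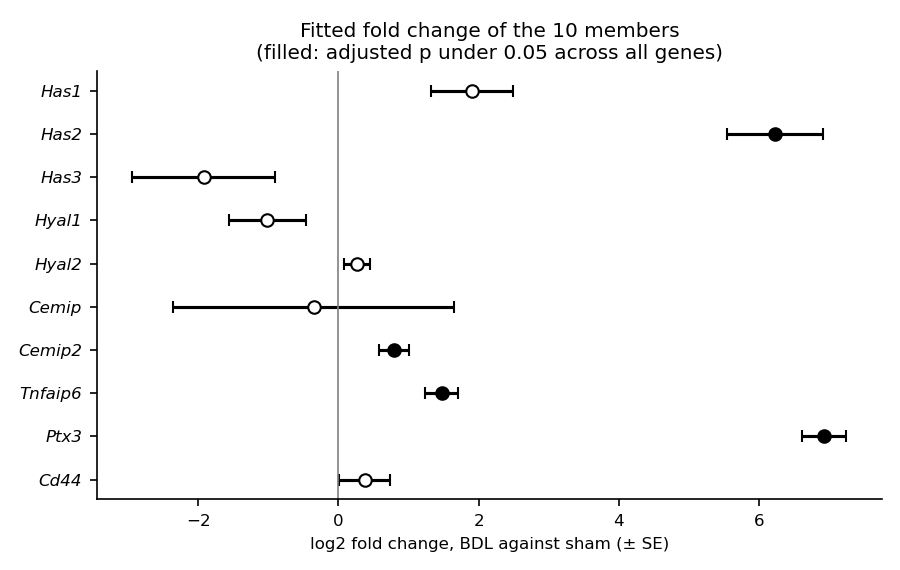
Fitted log2 fold change of BDL against sham (horizontal axis) with its SE for the 10 members, filled where the adjusted p across all genes was under 0.05. Ptx3 at 6.93 and Has2 at 6.23 stand apart from Has1 at 1.90 and Tnfaip6 at 1.47, and Cemip has the widest SE (2.0).

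Breakdown genes had log2 fold changes between -1.01 and 0.79. Cemip2 (chromosome 19, 21755657 to 21836114, plus strand), a membrane-spanning relative of Cemip that cuts hyaluronan at the cell surface in mice, stood at 49.1, 38.5 and 42.6 CPM in sham and at 85.2, 94.3, 53.1 and 66.3 CPM in BDL. All BDL libraries were above all sham libraries, with the male BDL libraries highest and BDL replicate 3 closest to sham. The log2 fold change was 0.79 (SE 0.21, edgeR adjusted p = 0.0351), or 1.73-fold. This call was near the threshold and was lost in 8 of 18 alternatives, with edgeR adjusted p-values of 0.111 when sham replicate 2 was left out, 0.122 for sham replicate 3, 0.107 and 0.0989 for BDL replicates 1 and 2, and 0.0504 for BDL replicate 4.

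Hyal1 (chromosome 9, 107454126 to 107458909, plus strand), the lysosomal hyaluronidase, stood at 13.4, 17.3 and 21.1 CPM in sham and at 7.96, 4.77, 5.60 and 20.8 CPM in BDL. In 3 BDL libraries it was below every sham library, and BDL replicate 4 lay within the sham range. The log2 fold change was -1.01 (SE 0.55, edgeR adjusted p = 0.222), and without BDL replicate 4 it was -1.49 (adjusted p = 0.0107). BDL replicate 4 held the most hepatocyte marker transcripts, while BDL replicate 1, the next in order, had a low Hyal1 level; the part of neighbouring tissue was not tested.

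Hyal1 is an uncertain member, since it shares 1920 bases of exon with Naa80 and 1436 bases with Hyal3 on the same strand. The estimate divides such reads between the genes. Naa80, an acetyltransferase that acts on actin, had a log2 fold change of -0.22 (SE 0.18), and Hyal3, a hyaluronidase relative of low activity, one of -1.44 (SE 0.32).

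Hyal2 (chromosome 9, 107445086 to 107450171, plus strand), a hyaluronidase anchored at the cell surface, stood at 30.6, 36.8 and 29.8 CPM in sham and at 36.4, 38.8, 32.2 and 48.97 CPM in BDL. The groups overlapped, and the log2 fold change was 0.27 (SE 0.19, edgeR adjusted p = 0.34). Hyal2 shares 539 exonic bases with the long non-coding RNA Gm9917 on the opposite strand, whose reads cannot be told apart there. Cemip (chromosome 7, 83582065 to 83735724, minus strand), which takes part in hyaluronan breakdown by fibroblasts in humans, was close to the limit of detection. It had 0, 1 and 12 counts in sham and 6, 0, 6 and 4 counts in BDL, at most 0.322 CPM. The libraries without a count allow up to 0.0578 CPM in sham replicate 1 and 0.0550 CPM in BDL replicate 2, and a difference was not detectable at this depth.

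The crosslinking genes were higher in all BDL libraries. Ptx3 (chromosome 3, 66127331 to 66133226, plus strand) stood at 0.404, 0.264 and 0.188 CPM in sham, from 21, 17 and 7 counts. In BDL replicates 1 to 4 it stood at 18.3, 26.4, 63.7 and 74.6 CPM, from 1217 to 4248 counts. The lowest BDL library was well above all sham libraries, and within BDL the female libraries were highest. The log2 fold change was 6.93 (SE 0.32), or 121.5-fold, and ran from 6.59 to 7.30 over 18 alternatives. It was 7.02 without BDL replicates 1 and 4 and 6.85 without BDL replicates 2 and 3. Ptx3 lies within Veph1 on the opposite strand and shares 0 bases of its exons.

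Several cell types make PTX3, including fibroblasts, endothelium, macrophages and neutrophils, and the fixed markers of these types did not move as 1 group. Neutrophil markers summed to 8.8 to 29.5 CPM in sham and to 46.7, 39.3, 55.8 and 176.2 CPM in BDL replicates 1 to 4, and 5 of 7 rose. Macrophage markers summed to 364 to 771 CPM in sham and 225 to 355 CPM in BDL, and 2 of 7 fell. Of 9 fibroblast markers 3 rose and 3 fell, and of 4 blood endothelial markers 2 fell. Their part in the Ptx3 level was not tested.

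Tnfaip6 (chromosome 2, 51927998 to 51946698, plus strand), which encodes the heavy chain transferase TSG-6, was already present in sham. It stood at 5.89, 9.01 and 6.33 CPM in sham and at 18.5, 17.9, 23.5 and 18.4 CPM in BDL. The BDL libraries lay close together, apart from a higher replicate 3, and did not overlap with sham. The log2 fold change was 1.47 (SE 0.23), or 2.77-fold, and ran from 1.24 to 1.65 over 18 alternatives, each with an adjusted p under 0.05 in the tool used.

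Cd44 (chromosome 2, 102641486 to 102732010, minus strand), the main cell surface receptor for hyaluronan, was the most abundant member. It stood at 313, 187 and 121 CPM in sham and at 331, 316, 212 and 210 CPM in BDL. The groups overlapped, with the female sham library close to the male BDL libraries. The log2 fold change was 0.38 (SE 0.36, edgeR adjusted p = 0.488), and it depended on the sham libraries. It was 1.07 without sham replicate 1 (edgeR adjusted p = 0.0465) and 0.04 without sham replicate 3. Sham replicate 3 held the largest share of acinar marker counts (35.3%), and the part of this in its low Cd44 level was not tested. The values are gene totals, and the annotation lists 12 Cd44 transcripts, whose variant exons were not measured here.

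Per kilobase of exon, the order of the members was led by Cd44 in both groups. In sham it ran from Cd44 (30.6 ± 14.5 CPM per kilobase, SD, n = 3) through Hyal2 (6.37 ± 0.76), Hyal1, Cemip2 and Tnfaip6 (3.07 ± 0.73) to Has3, Has1, Ptx3, Has2 and Cemip, all of which averaged 0.144 or less. The library ranges of Cd44 and Hyal2, of Hyal2 and Hyal1, and of Tnfaip6 and Has3 did not overlap, and the other neighbours did. In BDL it ran Cd44 (39.4 ± 9.65, SD, n = 4), Ptx3 (17.1 ± 10.3), Tnfaip6 (8.48 ± 1.15), Hyal2 (7.69 ± 1.4), Cemip2 (6.68 ± 1.66), Has2 (3.89 ± 1.93), Hyal1, Has1, Has3 and Cemip. There the ranges of Cd44 and Ptx3, of Hyal1 and Has1 and of Has1 and Has3 did not overlap. Ptx3 thus went from the eighth place to the second and Has2 from the ninth to the sixth. With the longest transcript as the length, the BDL ranges of Cd44 and Ptx3 also overlapped.

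**Figure D3:**
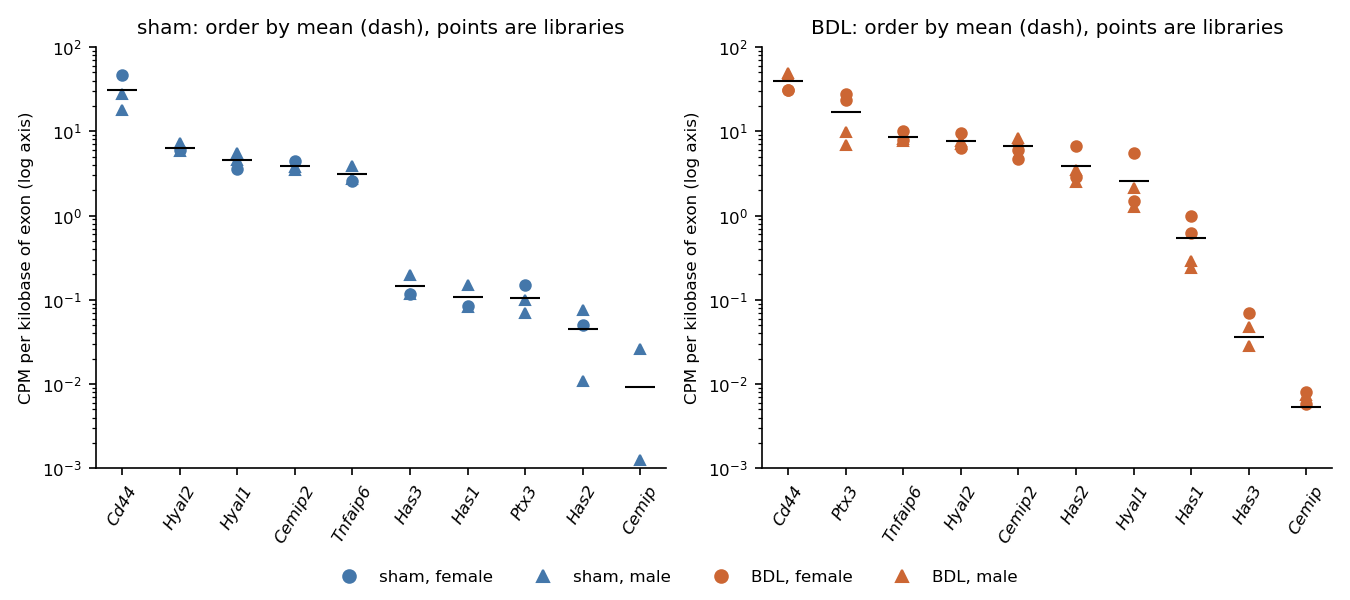
CPM per kilobase of exon on a log axis for the 10 members in sham (left) and BDL (right), ordered by the group mean (dash), with a point for each library. Libraries at 0 (Has3 in BDL replicate 4, Cemip in sham replicate 1 and BDL replicate 2) are not drawn. A gap separates Tnfaip6 from Has3 in sham, and in BDL Ptx3 and Has2 stand among the upper 6 members.

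Sex was not used in choosing the members, and its term was tested in the same fit. Ptx3 was lower in males by 1.38 on the log2 scale (SE 0.25), with an adjusted p = 0.938 in edgeR over all genes and 0.000167 in DESeq2, where the log2 value was -1.45. In BDL the female libraries stood at 63.7 and 74.6 CPM and the male libraries at 18.3 and 26.4 CPM, and in sham the female library at 0.404 CPM was also above the male ones. All 3 female libraries were thus above the males of their own group. By edgeR 0 members passed and 1 had an unadjusted p under 0.05, where 5 of 25209 genes (0.0198%) passed and 1237 had an unadjusted p under 0.05. By DESeq2 1 member passed, with a background of 0.571%. Has1 had a log2 value of -0.89 (SE 0.57, edgeR adjusted p = 0.946), and the remaining 8 members had values between -0.50 and 0.61.

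Whether ligation acted differently in the sexes was tested by an interaction term, which rests on sham replicate 1 as the only female sham library. Cd44 went from 313 CPM to 212 and 210 CPM in females, and from 187 and 121 CPM to 331 and 316 CPM in males. The female BDL libraries were below their sham library, and the male BDL libraries were above theirs. Epcam, a marker of the duct epithelium, crossed in the same way, from 705 CPM to 646 and 512 CPM in females and from 554 and 421 CPM to 875 and 805 CPM in males. The Cd44 change in males exceeded that in females by 1.64 on the log2 scale (SE 0.41), with an adjusted p = 0.704 in edgeR and, at 1.66, an adjusted p = 0.0028 in DESeq2. The interaction was above 0 for 6 of 7 cholangiocyte markers, at 1.07 (SE 0.46, edgeR adjusted p = 0.715) for Epcam and 0.98 (SE 0.32, edgeR adjusted p = 0.704, DESeq2 adjusted p = 0.0411) for Sox9, and the part of the epithelium in the Cd44 value was not tested. By edgeR 0 members and 0 of 25209 genes (0%) passed, while 3 members (Cd44, Cemip2 and Has1) and 1742 genes had an unadjusted p under 0.05. By DESeq2 1 member and 464 of 15923 genes (2.91%) passed, and Has3 and Cemip were given no adjusted p. Has1 had an interaction of -2.07 (SE 0.84, edgeR adjusted p = 0.715) and Cemip2 one of 0.86 (SE 0.28, edgeR adjusted p = 0.704), so neither difference passed. Has2 and Ptx3 were higher in BDL in each sex, by 95.1-fold and 171-fold in the means of females and 70.1-fold and 98.9-fold in those of males.

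**Figure D4:**
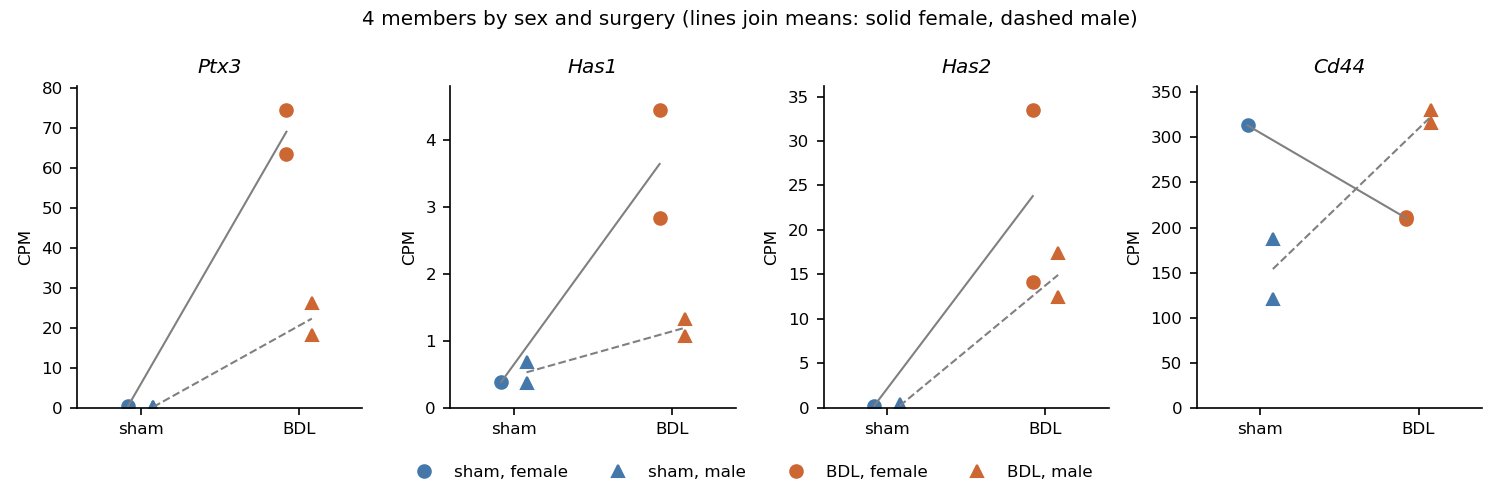
CPM of Ptx3, Has1, Has2 and Cd44 (vertical axes, from 0) in sham and BDL, with circles and solid lines for females and triangles and dashed lines for males. Lines join group means. Female BDL libraries lie above male ones for Ptx3 and Has1, and the lines for Cd44 cross, with 1 female sham library at 313 CPM.

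Genes around the members were grouped in 7 lists, of which 57 of 64 genes were tested. In edgeR 12 of them rose and 8 fell, beside 11.8% and 11% of all genes. Their median log2 fold change was 0.39. Among 8 enzymes that make the nucleotide sugars hyaluronan is built from, 2 rose, 1 fell and 5 did not pass, with a median of 0.47. Ugdh, which makes UDP-glucuronic acid, stood at 73.9, 80.1 and 67.6 CPM in sham and at 190.5, 184.5, 195.5 and 231.6 CPM in BDL, a log2 fold change of 1.42 (SE 0.16). Pgm3, of the pathway to UDP-N-acetylglucosamine, rose by 1.25 (SE 0.18). Gfpt1, the entry enzyme of that pathway, fell by 0.91 on the log2 scale (SE 0.25), and its relative Gfpt2 had a value of 0.51 (SE 0.31). The lower call rests on Gfpt1 alone (adjusted p = 0.0372 in edgeR), and 0 enzymes were lower in 5 of the 7 fits that left out a library (sham replicates 1 and 2 and BDL replicates 1, 3 and 4, each in turn).

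Of 8 other breakdown enzymes 4 were tested, and all 4 passed, 1 higher and 3 lower, with a median of -0.93. The lower count was 1 without BDL replicate 1 and likewise without BDL replicate 2, and 0 without BDL replicates 2 and 3. The higher count was also 0 without BDL replicates 2 and 3. Hexa, a subunit of the lysosomal enzyme that removes N-acetylhexosamine from chain ends, fell by 1.13 on the log2 scale (SE 0.22). Gusb, which removes glucuronic acid, rose by 0.71 (SE 0.14). Hyal3, which shares exons with Hyal1, was low, at 2.12 to 3.15 CPM in sham and 0.825 to 1.04 CPM in BDL.

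Of 16 matrix proteins that bind hyaluronan, 14 were tested, 1 rose, 2 fell and 11 did not pass. These counts depended on the libraries rich in hepatocyte transcripts, with 1 higher and 6 lower without BDL replicates 1 and 4, and 6 higher and 2 lower without BDL replicates 2 and 3. The count was also 2 higher without BDL replicate 4 and 1 lower without sham replicate 1. The called increase was that of the proteoglycan versican. Vcan stood at 5.35, 7.60 and 7.70 CPM in sham and at 40.8, 58.1, 51.8 and 67.7 CPM in BDL, a log2 fold change of 2.99 (SE 0.25). Itih5, an inter-alpha-trypsin inhibitor chain made outside the liver, fell by 1.87 on the log2 scale (SE 0.20) and Habp2, a plasma protease, by 1.30 (SE 0.25). The median of the list was 1.80, although only Vcan rose, and the 5 uncalled chains described next had fitted values above or close to it.

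Itih1 to Itih4 and Ambp, which include the heavy chains that TSG-6 transfers, encode proteins secreted mainly by hepatocytes. Their transcripts moved with the hepatocyte markers. Itih3 stood at 588 and 1750 CPM in BDL replicates 1 and 4, at 0.550 and 0.823 CPM in BDL replicates 2 and 3, and at 4.56, 8.95 and 29.2 CPM in sham. Itih1, Itih2, Itih4 and Ambp, which encodes the light chain bikunin, were highest in the same 2 BDL libraries, and none of the 5 passed (edgeR adjusted p between 0.229 and 0.393). Without BDL replicates 1 and 4 the Itih3 log2 value was -3.90 (edgeR adjusted p = 0.0226), and 4 of the 5 genes were called lower. Without BDL replicates 2 and 3 it was 6.59 (edgeR adjusted p = 0.0131), and all 5 were called higher, so the choice of libraries set the direction. In the BDL libraries low in hepatocyte markers Itih1 was at 0 and 0.0165 CPM. Whether these transcripts came from liver tissue was not tested. Among other pentraxins, Apcs, a plasma pentraxin of hepatocytes, followed the same libraries with 125 and 534 CPM against 3.08 to 12.6 CPM elsewhere. Its log2 value was -1.05 (edgeR adjusted p = 0.129) when BDL replicates 1 and 4 were left out. When BDL replicates 2 and 3 were left out instead, it was 5.12 (edgeR adjusted p = 0.0151).

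**Figure D5:**
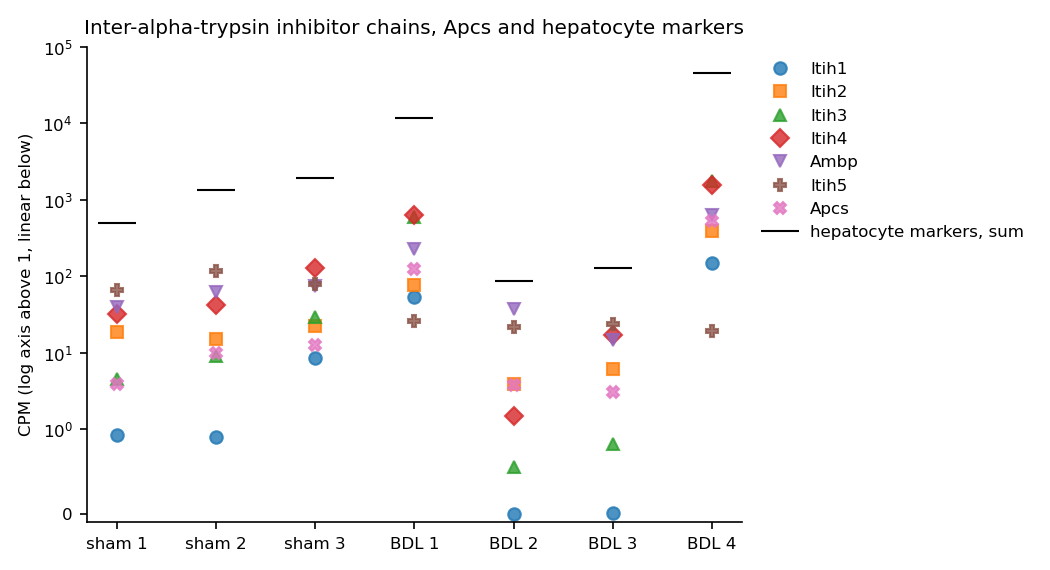
CPM (log axis above 1, linear below) of Itih1 to Itih5, Ambp and Apcs in each library, with the summed hepatocyte markers as dashes. Itih1 to Itih4, Ambp and Apcs are highest in BDL replicates 1 and 4, where the markers sum to 11664 and 45234 CPM, and Itih5 is lower in each BDL library than in each sham library.

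Of 7 other hyaluronan receptors 1 rose, 1 fell and 5 did not pass, with a median of -0.54. Hmmr, a hyaluronan-binding protein that also acts on the mitotic spindle, stood at 2.99, 2.86 and 0.832 CPM in sham and at 56.6, 74.9, 81.5 and 56.0 CPM in BDL, a log2 fold change of 4.88 (SE 0.48). Tlr2, an innate immune receptor, fell by 1.71 on the log2 scale (SE 0.23). Lyve1, the receptor of lymphatic endothelium, had a value of -0.62 (SE 0.32, edgeR adjusted p = 0.205). The lower count was 3 without sham replicate 1 and 2 without sham replicate 3.

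Of 5 other pentraxins tested, 0 were higher and 1 was lower: Nptx2, a neuronal pentraxin, fell by 1.96 on the log2 scale (SE 0.35). Crp, the classical short pentraxin, had a value of -0.30 (SE 0.88). It stood at 65.7 and 227 CPM in BDL replicates 1 and 4 and at 21.8 and 26.5 CPM in BDL replicates 2 and 3. In sham it stood at 55.0 to 99.6 CPM. Without sham replicate 1, 0 of these pentraxins were lower. The counts were 0 higher and 2 lower without BDL replicates 1 and 4, and 1 higher and 0 lower without BDL replicates 2 and 3.

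Of 12 ligands, linkers, sheddases and splicing factors of Cd44, 3 rose, 0 fell and 9 did not pass, with a median of 0.42. The count was 5 higher without BDL replicate 4 and 1 lower without sham replicate 1. Those that rose were Ezr (1.35, SE 0.29) and Msn (1.12, SE 0.19), which link CD44 to actin, and Mmp14 (1.48, SE 0.17), a membrane protease that can shed it. Spp1, which encodes the ligand osteopontin, had a value of 1.12 (SE 0.36, edgeR adjusted p = 0.0618) with no overlap between groups. The splicing factors Esrp1 and Esrp2, which favour Cd44 variant exons in epithelia, had values of 0.54 and 0.18 and did not pass.

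Since Has2, Tnfaip6 and Ptx3 belong to the programme of the ovulating follicle, 7 other genes of it were listed. Of these 4 rose, 0 fell and 3 did not pass, with a median of 1.0. The epidermal growth factor family ligands Ereg and Areg rose by 5.02 (SE 0.95) and 4.03 (SE 0.65) on the log2 scale, with BDL levels of 2.44 to 10.2 CPM and 1.81 to 10.2 CPM. In sham replicates 1 to 3 Ereg had 3, 19 and 1 counts and Areg 29, 27 and 12. The size of these fold changes thus rests on few sham reads. The 3 that did not pass were Btc at 0.27 (SE 0.31), Ptger2 at -0.54 (SE 0.48) and Ptger4 at -0.41 (SE 0.19). Adamts1, a protease that cuts versican, rose by 1.87 (SE 0.17) and the prostaglandin synthase Ptgs2 by 1.0 (SE 0.27). For Ptgs2, 2 of 4 BDL libraries stood at 16.7 and 17.6 CPM, and BDL replicate 1 at 5.84 CPM was within the sham range.

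Genes with a profile close to Has2 and Ptx3 were found by the root mean square difference over the 7 libraries. Each profile was log2 CPM less its own mean. The search covered 10658 protein-coding genes outside the members with a mean of at least 10 CPM in a group, so members were not compared with each other. Nearest to Has2 were Ncapg (0.53), Pimreg, Birc5, Ccnb1 and Kif4 (0.59). Nearest to Ptx3 were Ncapg (0.87), Sapcd2, Adamts4, Bub1 and Plk1 (0.94). The libraries fall into separate groups, so a large difference between BDL and sham weighs most in this measure, and no correlation is given.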

How the data were processed

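RNA-seq libraries of whole EHBD were prepared by the authors with a SMART-Seq mRNA kit, which does not mark strand, and were quantified with Salmon against GENCODE transcripts on GRCm39. The deposited table holds estimated counts of each gene as whole numbers, without normalization. Reads shared by overlapping genes are divided by estimate. Names and positions came from GENCODE mouse release 39, which matched 55563 of 56065 identifiers; the rest held 0.0335% of counts. Every pair of libraries differed by more than counting noise (chi-square at least 202.3 for each degree of freedom).

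The members and the 7 lists were chosen with earlier results of these data known. Genes with at least 10 counts in total were tested in edgeR 4.0.16 (R 4.3.3) by quasi-likelihood after TMM scaling, in a model of sex plus surgery that left 4 residual degrees of freedom, or 3 when their interaction was added. Benjamini-Hochberg adjustment ran over 25209 genes at a threshold of 0.05. SE was derived from each log2 fold change and its F value. Scripts were tested on simulated data. Floors are 3 counts. All members were named; from each list up to 4 called genes with the smallest p, any called gene against the majority and genes needed to describe the list were named, plus the 5 nearest profiles to Ptx3 and Has2. Some uncalled list genes (Gfpt2, Lyve1, Crp, Spp1, Esrp1, Esrp2, Btc, Ptger2, Ptger4, Apcs and the Itih chains) were named after their values were seen. Scaling by RLE or upper quartile was tried, as were other low-count filters, DESeq2 1.42.0, limma-voom (limma 3.58.1), robust dispersion, no sex term, neighbouring-tissue markers left out, and libraries left out. For the lists, leaving out BDL replicates 1 and 4 or 2 and 3, and no sex term, were added after seeing the data.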

Additional observations from a re-analysis of the deposited data

Results flagged for a closer look

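Tnfaip6 in BDL was flagged because replicate 3, at 23.5 CPM, stood apart from the other BDL libraries at 17.9, 18.4 and 18.5 CPM. Its gap to the nearest library was 0.896 of the whole range, above Dixon's 95% critical value for 4 libraries, which chance passes in about 1 of 20 groups. Without that library the Tnfaip6 log2 fold change was 1.37 (adjusted p = 0.00919 in edgeR).

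Cd44 was flagged because its change after ligation differed between the sexes by 1.66 on the log2 scale in DESeq2 (adjusted p = 0.0028), falling from 313 to 212 and 210 CPM in females and rising from 187 and 121 to 331 and 316 CPM in males. The same term was 1.64 in edgeR with an adjusted p = 0.704. It rests on 1 female sham library. The epithelial marker Epcam crossed in the same way, with a log2 value of 1.09 in DESeq2 (adjusted p = 0.0535), and the part of the epithelium was not tested.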

How the results depend on the processing

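Among 18 alternatives, the calls of Has2, Tnfaip6 and Ptx3 held in each, and Hyal2 and Has3 were called in none. Cemip changed sign in 4 of the 17 that tested it, with log2 fold changes of 0.42 in limma-voom, 0.65 without BDL replicates 2 and 3, 0.95 without BDL replicate 2 and 2.62 without sham replicate 3, and ran from -1.76 to 2.62 with each library left out. The number of members called lower was 1 (Hyal1) without BDL replicate 4 and without BDL replicates 1 and 4, and ran from 0 to 1 with each library left out. The number called higher ran from 3 to 5. Calls over all genes ran from 1678 to 3152 higher and from 1431 to 2883 lower with each library left out, against 2976 and 2782; there were 4188 lower in DESeq2 and 1692 lower without BDL replicates 2 and 3. Over the 7 lists the counts ran from 10 to 14 higher and from 5 (without BDL replicate 1) to 9 lower with each library left out. They were 15 and 10 in DESeq2, 12 and 11 when BDL replicates 1 and 4 were left out, and 15 and 4 for BDL replicates 2 and 3; the cause was not tested. DESeq2 called 1 member in the sex term and 1 in the interaction, edgeR 0 in each. Upper quartile scaling moved the median of all genes by -0.12 on the log2 scale and ended the Cemip2 call (0.66, adjusted p = 0.0548). With the longest transcript as the length, 6 of 10 members kept their rank in sham and Has1 made up 40.6% of the synthase level in sham. No paired analysis was possible because the labels give each library its own sample number and share none between groups.

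The depth limits Cemip and Has3, where up to 12 and 81 counts lie behind a value. With 1 female sham library, female changes have no replicate in sham.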
